A study of Mus musculus with 2 samples.

Results

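Tac2, Mrap, Acp5, Mcub, Plek2, C1qtnf4 and Pdia2 are 7 genes, of the 32285 listed in the count tables, that led a cluster of early erythroblasts among fetal liver cells. They were chosen by their high level in that cluster in both libraries, so their rise between erythroid stages is a description here and carries no test. Their levels in the other cell types, their course inside the erythroblast stage, their genomic surroundings and their values in KO against WT are described alongside.

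Cells came from E14.5 fetal livers of CD1 mice, an outbred stock, of IκBα WT embryos or of IκBα KO embryos, which lack the inhibitor of NF-κB encoded by Nfkbia. Livers of 2 WT and of 3 KO embryos were pooled, lineage depleted, sorted for LSK cells (lineage-negative, SCA1-positive, cKIT-positive) and sequenced as 1 droplet library per genotype. LT-HSC appears in the sample titles and LSK under cell type. Because each genotype had a single library, no test was run, and all intervals given are 95% intervals that cover counting error only.

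Red cells form in the fetal liver from progenitors that lose Kit, the stem cell factor receptor, and then fill with haemoglobin as erythroblasts. Erythroblasts remodel their membrane and cytoskeleton before they expel the nucleus, and they carry heavy iron and haem traffic in their mitochondria. The 7 genes belong to unlike families. Tac2 encodes the precursor of the tachykinin neurokinin B, Mrap an accessory protein that brings the ACTH receptor Mc2r to the cell surface, Acp5 the tartrate-resistant acid phosphatase known from osteoclasts and macrophages, Mcub a dominant-negative subunit of the mitochondrial calcium uniporter, Plek2 the cytoskeletal protein pleckstrin 2, C1qtnf4 a secreted C1q and TNF related protein, and Pdia2 a protein disulfide isomerase.

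The promoters are shown first. The genes lie on 7 different chromosomes, and their choice from 1 cluster fixed that they moved together. RefSeq promoter windows (250 bases before to 50 after a start, build GRCm38.p6) matched 5 of the 7 genes, and Mrap and C1qtnf4 are named only. Capitals mark matches, on either strand, to the GATA letters (AGATAA or AGATAG, and also TGATAA and the fourth form TGATAG) or to the CACCC letters (CCNCNCCC), the sequences that GATA and KLF factors are known to bind. Only windows with matches are printed. The first is an Acp5 window (chr9:22135697-22135996, minus strand), the second that of Pdia2 (chr17:26199038-26199337, minus strand) and the third that of Plek2 (chr12:78906889-78907188, minus strand).
Acp5: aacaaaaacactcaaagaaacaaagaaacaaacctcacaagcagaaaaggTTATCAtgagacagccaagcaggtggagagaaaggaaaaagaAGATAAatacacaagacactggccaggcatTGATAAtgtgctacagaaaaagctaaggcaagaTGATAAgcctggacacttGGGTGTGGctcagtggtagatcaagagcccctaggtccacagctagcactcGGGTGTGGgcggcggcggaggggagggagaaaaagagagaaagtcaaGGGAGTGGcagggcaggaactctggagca
Pdia2: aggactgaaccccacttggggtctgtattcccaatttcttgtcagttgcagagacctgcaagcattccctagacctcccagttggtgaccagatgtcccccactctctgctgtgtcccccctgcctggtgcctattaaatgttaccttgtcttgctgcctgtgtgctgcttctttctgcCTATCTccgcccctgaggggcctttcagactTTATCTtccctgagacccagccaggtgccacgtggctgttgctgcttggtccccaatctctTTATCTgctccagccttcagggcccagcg
Plek2: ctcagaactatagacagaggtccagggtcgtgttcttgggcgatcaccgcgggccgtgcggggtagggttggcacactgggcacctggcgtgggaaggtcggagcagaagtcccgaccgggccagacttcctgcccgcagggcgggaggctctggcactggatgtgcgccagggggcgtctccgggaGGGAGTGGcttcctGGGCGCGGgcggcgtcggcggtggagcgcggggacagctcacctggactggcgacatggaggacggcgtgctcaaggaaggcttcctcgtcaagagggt
The printed Acp5 window held 4 GATA matches, at 200, 158, 128 and 95 bases before the start, and 3 CACCC matches. The other Acp5 windows held no GATA letters and 1 CACCC match each. The windows of Tac2 and Mcub held neither GATA nor CACCC letters. The Pdia2 window held 3 GATA matches, and the Plek2 window held 2 CACCC matches and no GATA letters. GATA letters occurred in 2 of the 7 windows of the matched genes (Acp5 has 3 windows), against 29.8% of all 32851 windows. CACCC letters occurred in 4 of 7, against 49.5% of all windows, and the E-box letters CANNTG in 7 of 7, against 72.3%. Windows of 1 gene are not separate genes, and all Acp5 windows held CACCC letters. By gene, GATA letters occurred in Acp5 and Pdia2, and CACCC letters in Acp5 and Plek2. Of all 27025 gene symbols, 8930 had GATA letters and 14019 had CACCC letters. No window held TTCNNNGAA, the letters bound by STAT factors, which 8.30% of all windows held, or TATAAA, which 13.6% held. A match describes letters in a window and is not evidence of binding.

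The WT library held 3840 barcodes, of which 3458 were kept with a median of 28065 UMIs, and the KO library held 4928, of which 4417 were kept with a median of 19560 UMIs. Nfkbia had 1478 UMIs in WT and 7 in KO cells. Of the kept cells, 0.116% in WT and 17.4% in KO carried Y-linked UMIs without Xist, so the KO pool held male cells and the WT pool nearly none. The libraries shared 7 cell barcodes, 6 of them among kept cells.

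Cells were gated by marker lists that contain none of the 7 genes. Each cell went to the list with the highest mean scaled level. The early erythroblast gate required a score of at least 0.5 on a list of erythroblast markers that includes Alas2 and Epb42, and almost no Kit. It held 634 WT cells, 18.3% of the library (17.1 to 19.7), and 942 KO cells, 21.3% (20.1 to 22.6), and 22 and 19 of them lay within 0.1 of the score minimum. Globin, which the gate did not use, made up 21.0% of the UMIs of the gate in WT and 24.2% in KO, against 0.35% and 0.50% in late erythroid progenitors. Kit RNA in the gate was 3.56 in WT and 3.01 in KO per 1e+06 UMIs, and low Kit was a condition of the gate. The sort was for cKIT-positive cells, and whether these erythroblasts carried cKIT protein was not tested. The earlier stages were bipotent cells (39 WT and 40 KO cells), early erythroid progenitors (138 and 162), late erythroid progenitors that still had Kit (218 and 218) and Kit-negative intermediates (198 and 312). These stages were split by whether a UMI was detected, without thinning, so a shallow cell could miss Kit. Median depth was 44020.5 UMIs in WT and 32238 in KO late progenitors, and 37698 and 24550.5 in intermediates.

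The point values of all 7 genes were higher at each of the 3 steps from early erythroid progenitor to early erythroblast, in WT and in KO. From early to late progenitor, the interval of the step held 0 for Tac2, Acp5, Mcub and C1qtnf4 in KO. It also held 0 for Mcub and C1qtnf4 in WT. The KO step of Acp5 there was 0.05 (-0.17 to 0.27) on the log2 scale. In both libraries, each of the 7 was also higher in early erythroblasts than in every other named gate. The choice of the genes favoured both patterns, and the share of all genes with either was not counted. Levels are given as CPM, the UMIs of a gene summed over the cells of a gate and scaled to 1e+06 UMIs of the gate. UMIs count 3' ends of molecules, so a level does not depend on gene length.

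Tac2 showed one of the steepest courses. It had 1.05, 4.93, 14.54 and 32.6 CPM over the 4 stages in WT, and 3.56, 4.58, 15.6 and 28.7 CPM in KO. Outside the erythroid gates it was low in HSCs, with 7 UMIs in the 437 WT and 3 in the 386 KO cells, and in the lymphoid-primed gate, with 0 and 1. In the hepatocyte gate it had 5.27 and 3.72 CPM (9 and 9 UMIs), beside 4.93 and 4.58 CPM in late progenitors. In KO the bipotent gate had 6.79 CPM (9 UMIs), macrophages had 3.30 CPM and megakaryocytes 3.23 CPM. Of all Tac2 UMIs, 66.1% in WT and 60.9% in KO lay in early erythroblasts, which held 15.3% and 17.5% of all UMIs.

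Mrap was already present in progenitors. It had 20.4, 56.7, 109.2 and 164.5 CPM in WT, and 33.7, 50.1, 112.9 and 147.4 CPM in KO. Pdia2 followed Mrap closely at a lower level, with 7.67, 22.5, 40.3 and 59.6 CPM in WT and 14.2, 23.7, 39.9 and 64.9 CPM in KO. These 2 genes had the smallest rise from late progenitor to erythroblast.

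Acp5 was the most abundant of the 7, with 36.4, 62.7, 133.5 and 243 CPM in WT and 54.5, 56.3, 145.1 and 227.1 CPM in KO. Plek2 had 6.97, 13.1, 27.2 and 71.3 CPM in WT and 8.81, 14.4, 33.0 and 72.9 CPM in KO. The rarest were Mcub, with 18.3 CPM in WT and 19.5 CPM in KO erythroblasts, and C1qtnf4, with 15.6 and 16.7 CPM. In late progenitors Mcub had 3.29 and 3.61 CPM, and C1qtnf4 2.22 and 2.91 CPM.

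**Figure D1:**
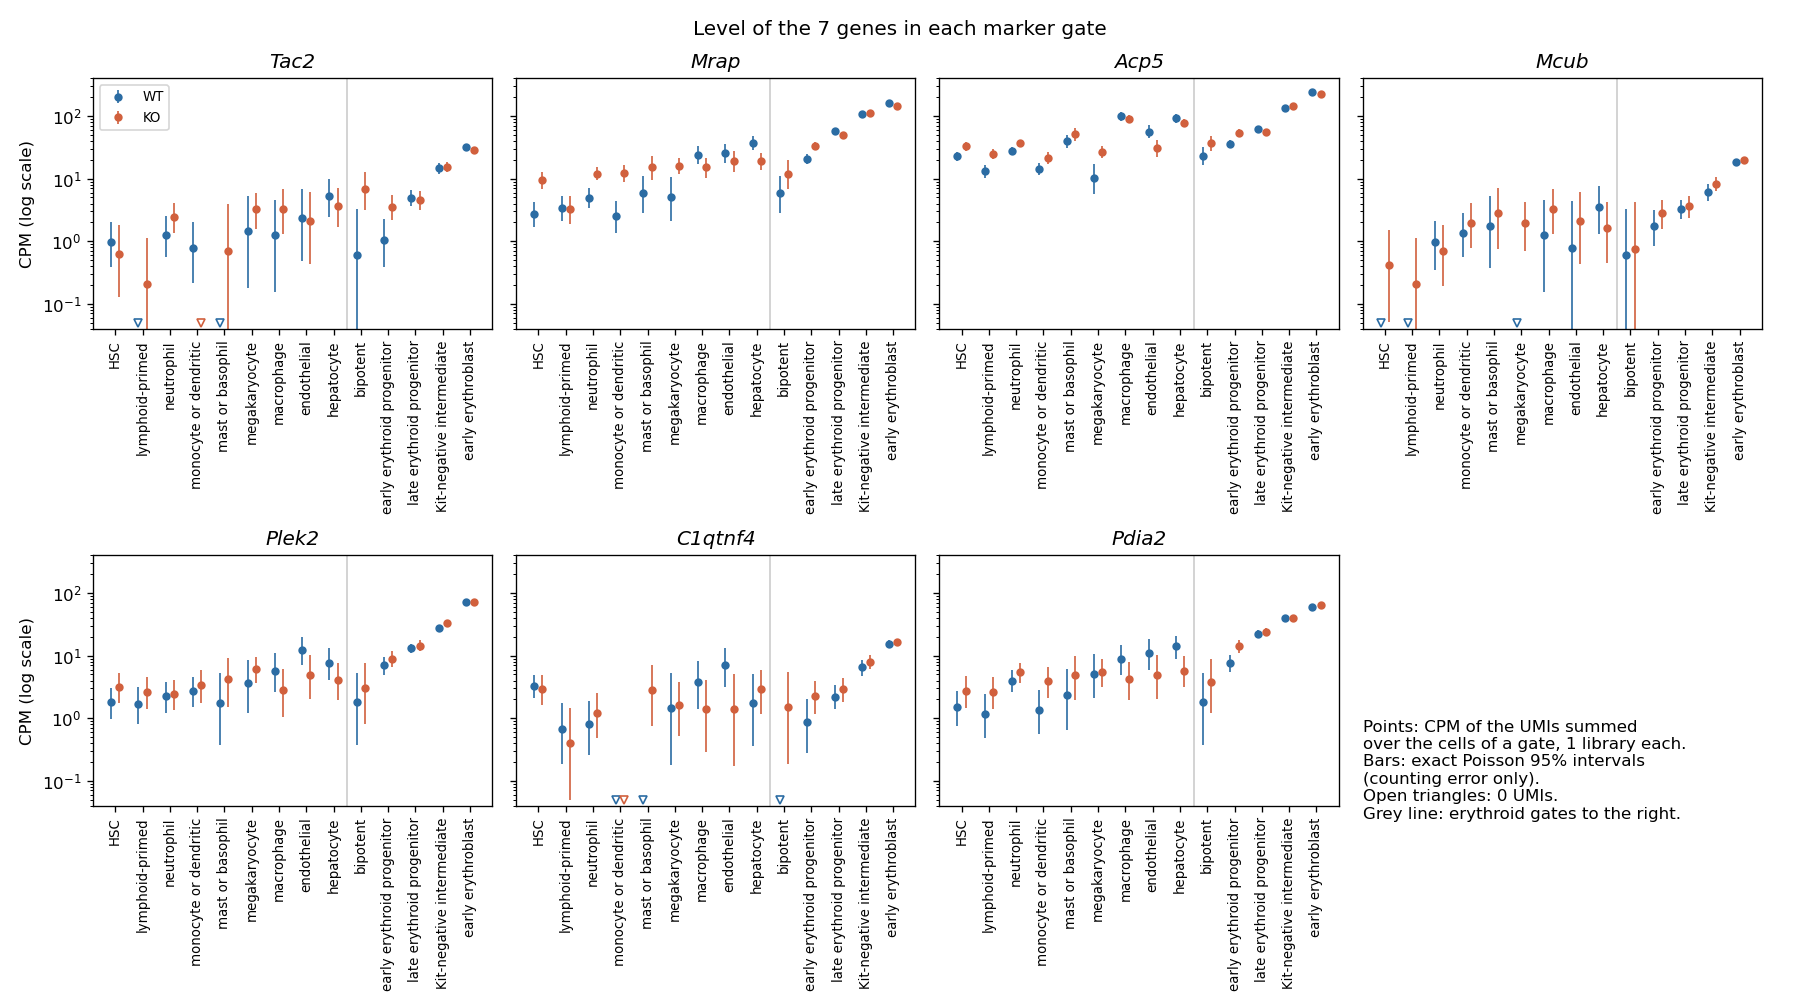
CPM (log scale) of each gene in every marker gate, WT in blue and KO in red, with exact Poisson 95% intervals and open triangles for 0 UMIs. All 7 genes climb from the early erythroid progenitor gate to the early erythroblast gate, and Acp5 also stands high in macrophages (99.0 and 89.99 CPM) and hepatocytes (91.9 and 76.5 CPM).

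From late progenitor to early erythroblast, all 7 genes passed a 2-fold rise in both libraries, which the choice of the genes fixed. Among all genes with at least 50 UMIs over both stages, 4.48% rose and 24.0% fell by that much in WT, and 4.25% and 28.2% did in KO. The median of all genes fell by 0.57 in WT and by 0.63 in KO on the log2 scale, and the rises below stand beside that shift. C1qtnf4 rose by 2.81 in WT (interval 2.20 to 3.50) and 2.51 in KO (1.88 to 3.23), and Tac2 by 2.73 (2.31 to 3.17) and 2.65 (2.14 to 3.20). Mcub rose by 2.48 and 2.44, Plek2 by 2.44 and 2.34, and Acp5 by 1.95 and 2.01. Mrap rose by 1.54 and 1.56, and Pdia2 by 1.41 and 1.45, and the intervals of these 2 genes lay below those of the other 5 in both libraries.

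Within the early erythroblast gate the 7 genes parted. The gate was split by erythroblast marker score into 4 bins, from 0.5 to 1, 1 to 1.5, 1.5 to 2 and over 2, whose globin share climbed from 4.55% through 15.2% and 30.8% to 46.3% in WT and from 8.61% through 18.1% and 34.7% to 51.0% in KO. Tac2 was highest in the third bin and then dropped, with 27.9, 35.5, 42.8 and 19.7 CPM in WT and 26.0, 32.8, 33.4 and 12.4 CPM in KO. Mrap and Acp5 were highest in the second bin, at 196.2 and 303.4 CPM in WT and at 165.3 and 268.7 CPM in KO. Plek2 climbed throughout in WT, from 50.3 to 90.3 CPM, and in KO reached 84.5 CPM in the third bin and 70.3 CPM in the last.

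Globin dilutes every other gene on the CPM scale, so the same bins were also scaled to the UMIs left after globin was removed. On that scale Tac2 still fell from the third to the last bin, from 61.8 to 36.6 CPM in WT and from 51.2 to 25.3 CPM in KO. Mcub also fell, from 30.0 to 22.5 CPM in WT and from 43.1 to 28.2 CPM in KO. Acp5 changed little, from 342.6 to 317.5 and from 321.1 to 301.3 CPM. Mrap turned to a slight rise, from 230.4 to 237.9 and from 219.1 to 228.1 CPM, and Plek2 rose from 118.9 to 168.2 and from 129.4 to 143.6 CPM. On the plain CPM scale 6 of the 7 genes in WT and 7 of 7 in KO were lower in the last bin than in the third. Without globin this held for 3 of the 7 in each library, namely Tac2, Mcub and Acp5. The share of all genes that were lower in the last bin was not counted, so these counts describe the 7 genes only.

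**Figure D2:**
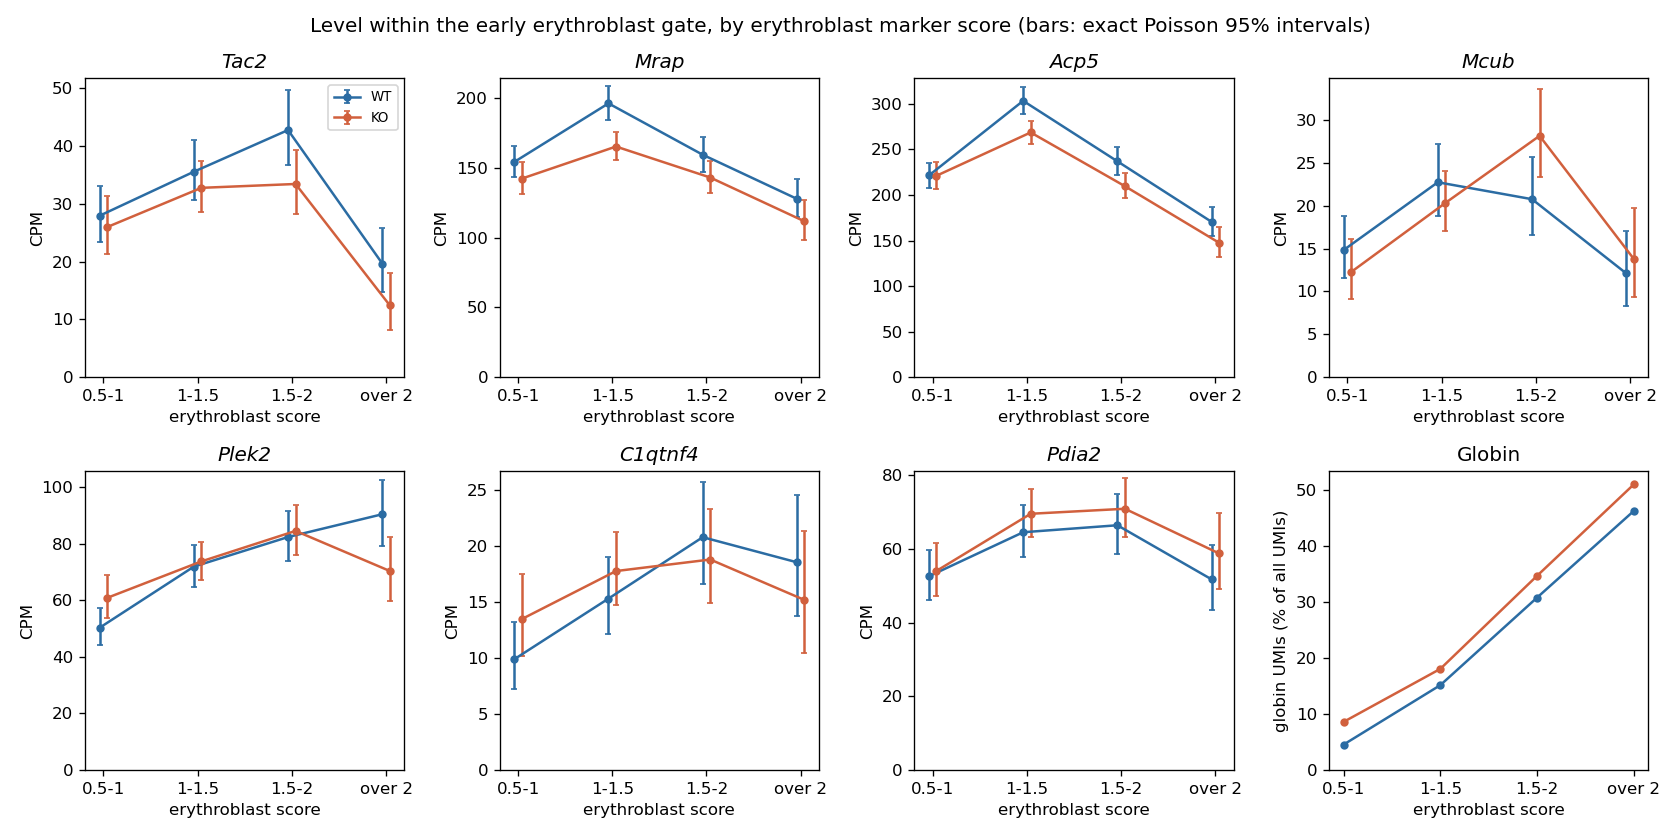
CPM of each gene in 4 bins of the erythroblast marker score, WT in blue and KO in red, with exact Poisson 95% intervals, and the globin share of UMIs in the last panel. Tac2 drops in the bin over 2 (19.7 CPM in WT, 12.4 CPM in KO), while WT Plek2 reaches its highest level there (90.3 CPM).

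Detection per cell was compared after each cell had been thinned to 5000 UMIs. The share of erythroblasts with Acp5 was 63.6% in WT and 60.9% in KO, that with Mrap 49.5% and 46.4%, that with Plek2 30.7% and 31.5%, and that with Pdia2 24.5% and 27.8%. The other 3 genes were found in few cells, Tac2 in 12.6% and 11.2%, Mcub in 7.69% and 8.78%, and C1qtnf4 in 7.83% and 8.44%. In HSCs, which served as the background gate, Acp5 was found in 10.4% and 13.8%, C1qtnf4 in 1.79% and 1.26%, and each other gene in under 2% of cells. Unthinned shares in erythroblasts were higher, such as 90.7% and 88.3% for Acp5 and 34.2% and 27.1% for Tac2, at median depths of 22766.5 and 16620.5 UMIs. Unthinned shares in HSCs were 29.5% and 27.2% for Acp5 and 0.458% and 0.518% for Tac2, at 15478 and 11115 UMIs.

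At least 1 of the 7 genes was detected in 89.9% (87.4 to 92.2) of the WT erythroblasts and in 88.7% (86.5 to 90.7) of those from KO. The share was 72.1% and 73.8% in intermediates, 48.9% and 46.9% in late progenitors, and 13.7% and 17.3% in HSCs, where Acp5 accounted for most of it. At least 4 genes were found together in 9.15% of WT and 10.0% of KO erythroblasts, a difference of 0.87 percentage points (-2.36 to 3.79). Pairs of the genes fell in the same erythroblast slightly more often than the product of their shares, by a median factor of 1.09 in WT and 1.07 in KO over 21 pairs. The factor was above 1 for 17 of the 21 pairs in WT and for 21 of 21 in KO, and its highest value was 1.25 in WT and 1.27 in KO. Other gene pairs were not counted, so these values describe the 7 genes only. The genes were chosen for the same cluster, and the globin share of UMIs differed between cells of the gate. The part of either in the factor was not tested.

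**Figure D3:**
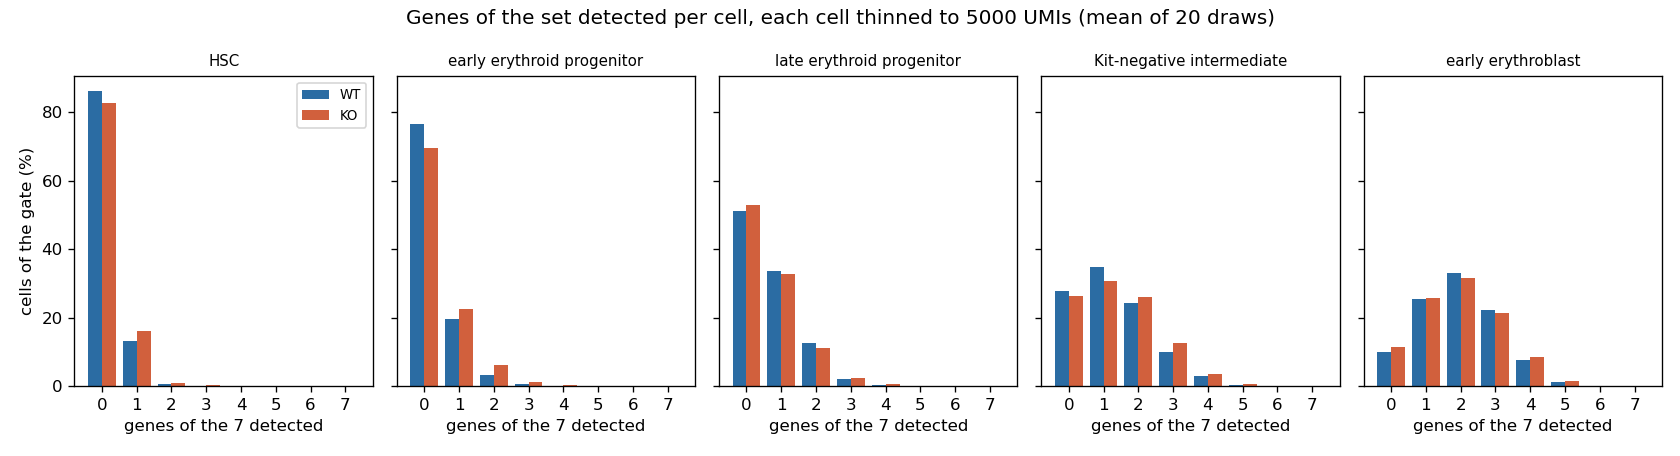
Share of cells (%) by the number of the 7 genes detected at 5000 UMIs per cell, mean of 20 draws, WT in blue and KO in red, in HSCs and 4 erythroid stages. The bars shift from 0 genes in HSCs towards 2 genes in early erythroblasts, alike in both libraries.

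Outside the erythroid lineage, Acp5 stood apart. Macrophages, in which this phosphatase is a known marker, had 99.0 CPM in WT and 89.99 CPM in KO, and the hepatocyte gate had 91.9 and 76.5 CPM. In HSCs Acp5 had 22.7 and 32.9 CPM. The UMI ratio of Acp5 to Mrap was 1.48 and 1.54 in erythroblasts, but 4.11 (2.86 to 6.02) and 5.97 (4.09 to 8.97) in macrophages and 8.20 (5.14 to 13.8) and 3.47 (2.47 to 4.94) in HSCs. The ratio in both gates thus lay above that of erythroblasts by more than the counting error. The same held for lymphoid-primed cells, at 3.85 (2.33 to 6.65) and 7.56 (4.47 to 13.7), and neutrophils, at 5.58 (3.79 to 8.47) and 3.03 (2.30 to 4.04). Intervals reached the erythroblast ratio in megakaryocytes, at 2.00 (0.76 to 5.86) and 1.68 (1.17 to 2.43), and in endothelial cells, at 2.21 (1.45 to 3.45) and 1.59 (0.96 to 2.68). A high ratio was thus not particular to macrophages or HSCs. Macrophage markers themselves summed to 2.59 and 6.36 CPM in the erythroblast gate against 4474 and 5520 CPM in macrophages, with all 8 detected in both libraries and none above 1.73 CPM there.

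C1qtnf4 was also counted in HSCs, with 24 UMIs (3.33 CPM) in WT and 14 UMIs (2.95 CPM) in KO. Its UMI ratio to Mrap there was 1.20 (0.64 to 2.29) in WT and 0.31 (0.16 to 0.58) in KO, against 0.095 and 0.113 in erythroblasts. In the lymphoid-primed gate it had 0.68 and 0.41 CPM, and in the monocyte or dendritic gate 0 UMIs in both libraries, which allows up to 0.59 and 0.83 CPM at 3 UMIs. In the endothelial gate it had 6.98 CPM (3.19 to 13.3) in WT, from 9 UMIs, and 1.41 CPM in KO, from 2 UMIs, and in macrophages 3.81 and 1.41 CPM. Mcub had 0 and 2 UMIs in HSCs, 0 and 1 in the lymphoid-primed gate, and 7 and 7 in the monocyte or dendritic gate.

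Mrap in non-erythroid gates was higher in KO than in WT in several places. HSCs had 2.77 CPM in WT (20 UMIs in 10 cells) and 9.48 CPM in KO (45 UMIs in 16 cells), a log2 KO/WT of 1.77 (0.98 to 2.61). Neutrophils had 4.95 and 12.1 CPM, a log2 of 1.28 (0.65 to 1.94), and the monocyte or dendritic gate 2.56 and 12.2 CPM, a log2 of 2.26 (1.34 to 3.27). The hepatocyte gate went the other way, with 37.5 and 19.0 CPM. Acp5 was also higher in KO in the first 3 gates. Its log2 KO/WT was 0.53 (0.21 to 0.86) in HSCs, 0.40 (0.10 to 0.70) in neutrophils and 0.60 (0.12 to 1.08) in the monocyte or dendritic gate. In the endothelial gate Acp5 had -0.90 (-1.48 to -0.33). No share of all genes is set beside these values. The 6 erythroblast markers moved alongside in HSCs, with a sum of 31.9 CPM in WT against 73.1 CPM in KO, and globin made up 0.315% and 0.614% of the UMIs. Their part in the Mrap and Acp5 differences was not tested.

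KO and WT were compared next, gate by gate. The genes were chosen for a high level in erythroblasts of both libraries, which limited how far they could differ there. In early erythroblasts 0 of the 7 genes differed by 1.5-fold, against 1.37% of all genes that were higher and 1.62% that were lower in KO by that much. The median log2 KO/WT over the 7 was 0.03, beside -0.03 over all genes. The log2 KO/WT of Mrap (2728 UMIs in WT, 2550 in KO) was -0.16 (-0.24 to -0.08), and that of Acp5 (4029 and 3929 UMIs) was -0.10 (-0.16 to -0.03). Tac2 (541 and 497 UMIs) had -0.18 (-0.36 to -0.01). The counting intervals of these 3 genes lay below 0. Mrap kept its interval below 0 under each of 8 alternatives that gave one, whereas that of Tac2 held 0 under 5 of the 8 and that of Acp5 under 3. With a higher minimum of genes per cell, for example, Tac2 had -0.08 (-0.26 to 0.09) and Acp5 -0.04 (-0.10 to 0.02). Pdia2 had 0.12 (-0.00 to 0.25), Mcub 0.09 (-0.14 to 0.32), C1qtnf4 0.09 (-0.16 to 0.34) and Plek2 0.03 (-0.08 to 0.15), all with intervals that held 0, though that of Pdia2 lay above 0 under 4 of the 8 alternatives. A single pair of libraries cannot tell genotype from differences between embryos or preparations.

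The Tac2 difference was not seen among female cells. Erythroblasts with Xist and without Y-linked UMIs had 33.1 CPM of Tac2 in WT (619 cells) and 33.2 CPM in KO (665 cells), a log2 KO/WT of 0.01 (-0.18 to 0.20). The 154 male KO erythroblasts had 20.5 CPM, a log2 male over female of -0.70 (-1.12 to -0.29) within the KO library. C1qtnf4 moved the opposite way in that library, with 23.7 CPM in male and 14.4 CPM in female erythroblasts, a log2 of 0.72 (0.29 to 1.14). Acp5 was also higher in male cells, at 261.9 against 225.2 CPM, a log2 of 0.22 (0.10 to 0.34). Mrap had 154.0 CPM in male and 148.6 CPM in female cells, and its log2 KO/WT among female cells was -0.15 (-0.23 to -0.06). Male KO erythroblasts had a median marker score of 1.26 and a globin share of 20.6%, against 1.45 and 24.5% in female KO erythroblasts. Sex and embryo cannot be told apart in a pool, and the part of maturation was not tested.

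**Figure D4:**
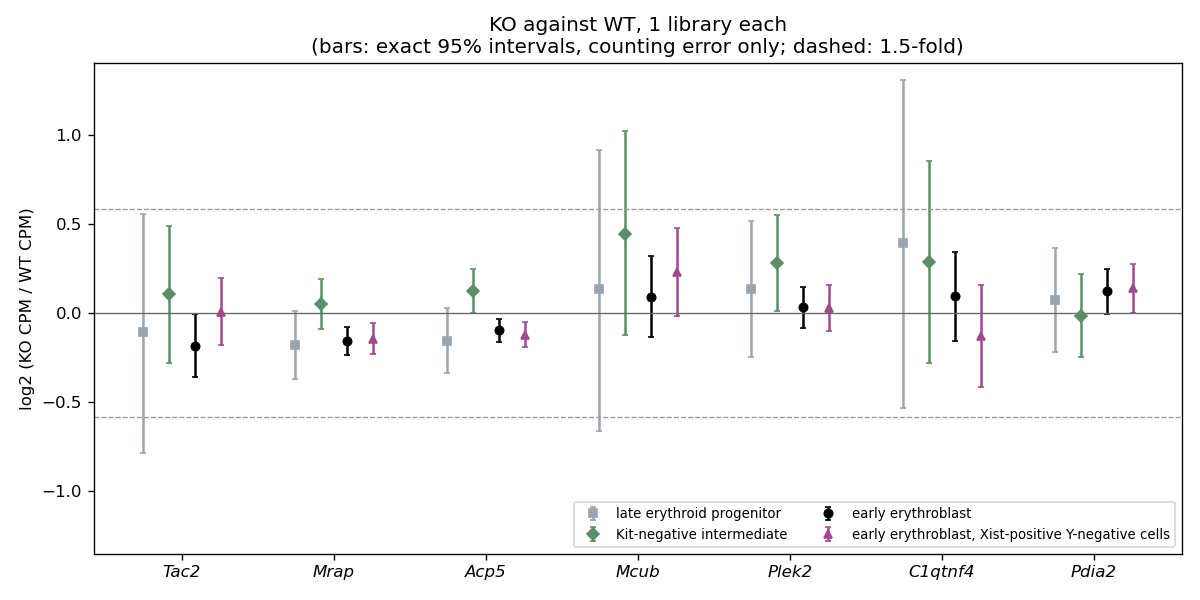
Log2 KO/WT of each gene in late progenitors, Kit-negative intermediates, early erythroblasts and Xist-positive, Y-negative early erythroblasts, with exact 95% intervals that cover counting error only. No point passes the dashed 1.5-fold lines, and Tac2 lies at -0.18 over all erythroblasts and at 0.01 over female ones.

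Within the score bins the KO values of Mrap lay below the WT values in all 4, with log2 KO/WT of -0.12, -0.25, -0.16 and -0.19. Acp5 was equal in the first bin (-0.00) and lower by 0.18, 0.18 and 0.21 in the next 3. Tac2 went from -0.11 and -0.12 in the first bins to -0.36 (-0.68 to -0.03) and -0.66 (-1.39 to 0.03) in the later ones. Plek2 crossed over, from 0.27 (0.01 to 0.54) in the first bin to -0.36 (-0.66 to -0.06) in the last. Mcub had 0.44 (0.03 to 0.86) in the third bin, where KO had 28.2 CPM and WT 20.8 CPM. KO cells held more globin than WT cells in each bin, so the bins were not matched exactly for maturation.

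In Kit-negative intermediates 0 of 7 genes differed by 1.5-fold, against 3.45% of all genes higher and 1.09% lower in KO, and Plek2 had the only interval above 0, at 0.28 (0.01 to 0.55). In late progenitors 0 of the 6 genes with at least 50 UMIs did, against 2.19% higher and 1.22% lower. Among early erythroid progenitors 4 genes had enough UMIs. Mrap, with a log2 KO/WT of 0.73 (0.38 to 1.07), and Pdia2, with 0.89 (0.34 to 1.46), passed 1.5-fold there, against 1.63% of all genes higher and 2.01% lower. Acp5 had 0.58 (0.32 to 0.85) and Plek2 0.34 (-0.30 to 0.98). The summed level of the erythroblast markers in this gate was 141.7 CPM in WT against 247.9 CPM in KO, and globin made up 0.165% and 1.20% of its UMIs. Their part in the higher KO values was not tested.

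Other genes of the same families were examined next. Among the tachykinin, melanocortin and pleckstrin genes, none besides the 7 had enough UMIs for a fold between stages. Of the tachykinin genes, Tac1 and the receptors Tacr2 and Tacr3 had 0 UMIs in both libraries, the neurokinin 1 receptor Tacr1 had 1 UMI, and Tac4 had 24, of which 1 lay in erythroblasts. Transcripts for neurokinin B were thus seen with almost no transcripts of a tachykinin receptor in the captured cells.

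Mrap and the receptor it serves ran in opposite directions. Mc2r had 5.06 CPM in early erythroid progenitors of both libraries (29 and 27 UMIs), 2.90 and 2.36 CPM in late progenitors, 2.51 and 1.52 CPM in intermediates, and 0.78 and 0.64 CPM in erythroblasts (13 and 11 UMIs). The UMI ratio of Mrap to Mc2r climbed from 4.03 (2.67 to 6.29) in WT and 6.67 (4.43 to 10.4) in KO early progenitors to 210 (123 to 395) and 232 (129 to 465) in erythroblasts. Mc5r, another melanocortin receptor, was highest in the mast or basophil gate, at 33.2 and 24.3 CPM, and had 0.48 and 0.29 CPM in erythroblasts. The paralogue Mrap2 had 1 UMI in all, and Mc3r and Mc4r had 0.

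Mcub rose while its pore-forming partner Mcu did not. Mcu had 4.64 and 4.44 CPM in late progenitors and 4.16 and 3.29 CPM in erythroblasts. The UMI ratio of Mcub to Mcu went from 0 and 0.06 in HSCs through 0.71 (0.44 to 1.12) and 0.81 (0.47 to 1.41) in late progenitors and 2.09 (1.23 to 3.65) and 1.71 (1.13 to 2.62) in intermediates to 4.41 (3.38 to 5.81) and 5.93 (4.47 to 7.996) in erythroblasts. None of the 6 other uniporter genes with enough UMIs rose by 2-fold in either library, and in KO 1 fell. Of all genes, 4.48% in WT and 4.25% in KO rose, and 24.0% and 28.2% fell. Letm1, a mitochondrial inner membrane exchanger, had -0.89 in WT and fell by 1.30 in KO.

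**Figure D5:**
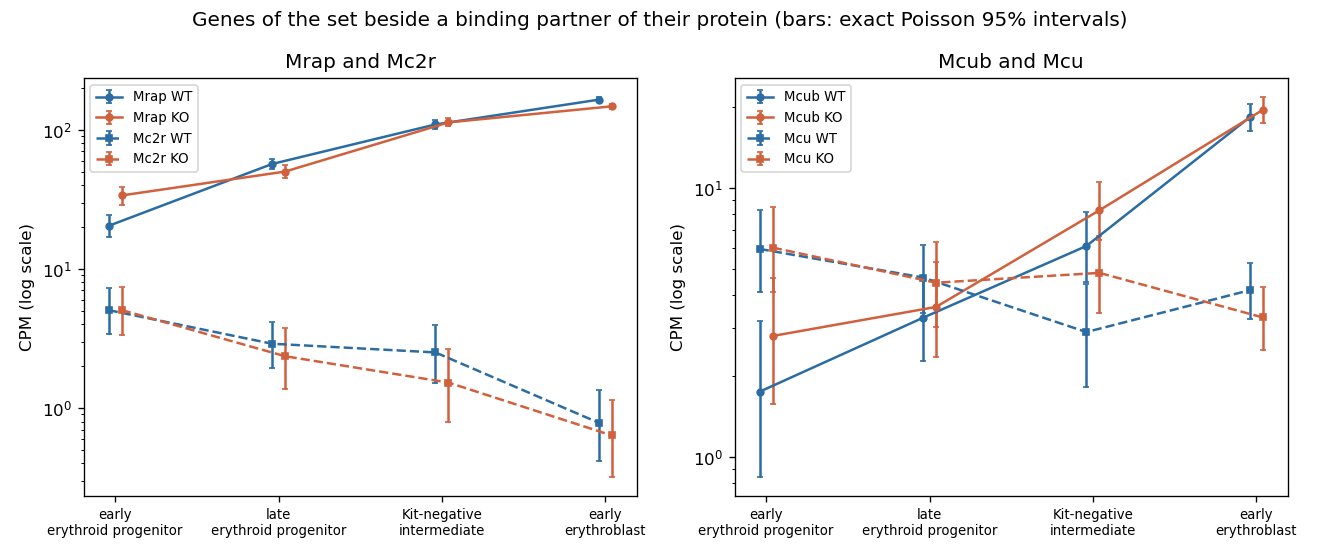
CPM (log scale) of Mrap beside Mc2r and of Mcub beside Mcu over 4 erythroid stages, WT in blue and KO in red, with exact Poisson 95% intervals. Mrap climbs as Mc2r falls from 5.06 to under 1 CPM, and Mcub crosses above Mcu between late progenitors and intermediates.

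Of the other disulfide isomerases and their partners, 0 of 9 rose and 5 fell by 2-fold in WT, and 0 of 8 rose and 4 fell in KO, beside 4.48% and 4.25% of all genes that rose and 24.0% and 28.2% that fell. P4hb, the abundant founding member, fell by 1.14 and 1.33, and Pdia4 by 1.53 and 1.44. Of the other acid phosphatases 0 of 3 rose in either library, and Acp6 fell by 1.22 in WT and past 2-fold in KO. C1qtnf12, the only other C1q and TNF related gene with enough UMIs, fell by 1.31 and 1.22, from 81.0 to 32.7 CPM in WT and from 94.996 to 40.7 CPM in KO. Plek, the other pleckstrin, had 23 and 21 UMIs in erythroblasts, under the minimum. It went from 0.68 to 1.39 CPM in WT and from 0.28 to 1.21 CPM in KO, a log2 step of 1.04 and 2.13.

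Genes of the red cell membrane gave the set a frame. Of 15, 8 rose and 0 fell by 2-fold in both libraries. For this list and the next, 4.48% of all genes rose and 24.0% fell by that much in WT, and 4.25% and 28.2% did in KO. The anion exchanger Slc4a1 rose by 5.39 and 5.02, the tropomodulin Tmod1 by 3.27 and 3.18, both more than any of the 7 genes, and dematin (Dmtn) rose by 2.82 and 3.04. Of the erythropoietin response genes 4 of 9 rose and 3 fell in WT, and 2 of 9 rose and 3 fell in KO. The kinase gene Pim1 rose by 1.57 and 1.63, whereas Stat5a fell by 2.50 and 2.53. Among genes with at least 50 UMIs over both erythroblast sums, none in these lists differed by 1.5-fold between KO and WT. Of all genes, 1.37% were higher and 1.62% lower in KO by that much.

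The genomic surroundings were examined as well. By GENCODE vM21 (GRCm38), Tac2 lies at chr10:127724478-127731768 (plus strand), Mrap at chr16:90738207-90749785 (plus), Acp5 at chr9:22126727-22135711 (minus), Mcub at chr3:129914960-129970206 (minus), Plek2 at chr12:78888691-78906964 (minus), C1qtnf4 at chr2:90885860-90890525 (plus) and Pdia2 at chr17:26195999-26199087 (minus). All are protein-coding. Of the 14 nearest protein-coding neighbours, 13 had a log2 step below 0 from late progenitor to erythroblast in WT, as did all 13 with a value in KO. Among all genes with at least 50 UMIs over both stages, 80.5% in WT and 81.9% in KO had a step below 0. The exception, Myo1a beside Tac2, had 2 UMIs in WT erythroblasts. Arhgdig, 95 bases from Pdia2, had -0.33 and -0.28, Casp6, 856 bases from Mcub, had -0.30 and -0.38, and Eif2s1, 1680 bases from Plek2, had -0.48 and -0.58. The noncoding gene 6530413G14Rik overlaps Acp5 on the opposite strand and had 2 UMIs in WT and 1 in KO erythroblasts.

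Across 14 gates, each taken over both libraries together, the 7 genes correlated with each other at a Pearson r of 0.76 to 0.99 over 21 pairs, with a median of 0.88. The genes were chosen for a high level in the same cluster, which by itself raises r between them. The points share libraries and depth, and r is a description. Mrap and Pdia2 were the closest pair (r = 0.988). Among 11456 genes, the nearest to Tac2 were Hagh (0.953), Tmem14c (0.9496), a mitochondrial protein of haem synthesis, and Bsg (0.941), which encodes basigin. Redrum, an erythroid long noncoding RNA, was the first gene outside the set for both Mrap (0.981) and Pdia2 (0.990). Grina led for Acp5 (0.975), Pigq for Plek2 (0.986) and Brpf3 for C1qtnf4 (0.918). For Mcub the nearest was Uros (0.949), an enzyme of haem synthesis, followed by the glycine transporter Slc6a9 (0.948) and the transcription factor Sox6 (0.941).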

How the data were processed

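Single-cell RNA of E14.5 fetal liver LSK cells was measured in 1 IκBα WT and 1 IκBα KO library (10x 3' v3). The authors processed the reads with Cell Ranger (6.0.0, build mm10) and deposited UMI counts, not normalised, for each gene in each cell. Genes were matched to GENCODE vM21 (32158 of 32285 IDs found).

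A cell entered with at least 1000 genes and no more than 20% mitochondrial UMIs. Gates used the mean z-score of log-normalised levels (per 10000 UMIs) over marker lists, with score minimums of 0.5, of 1 for mast or basophil and of 2 for megakaryocyte, macrophage, endothelial and hepatocyte, set after the gate genes had been seen. Erythroid cells were split by Gata1, Gata2, Itga2b, Muc13 and Kit UMIs. UMIs were summed per library and gate, with exact Poisson intervals for CPM and exact Clopper-Pearson intervals for shares and ratios. No test was run. Changes were counted past 2-fold between stages and 1.5-fold between KO and WT, for genes with at least 50 UMIs over the sums compared, outside the gate genes. Members and lists were chosen with earlier results of these data known. Named genes are the 7 members, Nfkbia, the 3 most alike genes per member by r of log2(CPM + 1) over gates (not all printed), the nearest neighbours, and examples from each family list. Acpp stood for Acp3, and Fam132b was not analysed here. Scrublet (in scanpy 1.11.5, with 5% doublets expected) called 26 WT and 37 KO erythroblasts, which were kept. Thinning used 20 draws per cell and left out cells under 5000 UMIs (5 WT and 9 KO erythroblasts). The code was tested on simulated data. Alternatives covered the cell filters, doublets, gate threshold, sex, scaling, averaging and thinning. The score bins and the split of KO cells by sex were chosen after seeing the data. Analyses used Python 3.11.15, numpy 2.4.6 and scipy 1.17.1.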

Additional observations from a re-analysis of the deposited data

How the results depend on the processing

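The rise of the 7 genes from late progenitor to early erythroblast kept its direction, gene by gene and in both libraries, under each of 9 alternatives to the cell filters, doublets, gate threshold, sex, scaling and averaging. Its size followed the scaling. The median log2 rise of 2.44 in WT and 2.34 in KO became 2.81 and 2.77 without haemoglobin, mitochondrial and ribosomal protein genes, and 3.01 and 2.97 with median-of-ratios scaling. In early erythroblasts, Tac2 KO/WT changed from -0.18 to 0.0067 (log2) among female cells, and Plek2 and C1qtnf4, near 0 throughout, took either sign over the alternatives (-0.05 to 0.09 and -0.13 to 0.15). Mrap (-0.18 to -0.08), Acp5 (-0.13 to -0.04), Mcub and Pdia2 kept the sign of their value, though the interval of Acp5 held 0 under 3 of 8 alternatives and that of Tac2 under 5. The share of erythroblasts with at least 4 genes, KO minus WT, went from 0.87 to -8.85 percentage points without thinning, where WT cells were deeper (67.7% in WT against 58.8% in KO). No paired analysis was possible because there was a single library of either genotype. Depth limited the rarer genes: Tac2, Mcub and C1qtnf4 had under 10 UMIs in many non-erythroid gates, which left wide intervals there, such as -5.55 to -0.03 around a log2 KO/WT of -2.30 for C1qtnf4 in the endothelial gate.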
